A study of Mus musculus with 8 samples.

Results

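The transcripts described are those of 10 BCL2 family genes, taken as the rows of the deposited table whose symbol is Bcl2, Bcl2l1, Mcl1, Bcl2a1b, Bcl2a1d, Bcl2l11, Bid, Bad, Bak1 or Bmf. All 10 were found once each among 34432 rows. They were measured by sequencing of polyadenylated RNA in 8 libraries of mouse bone marrow-derived macrophages, which are grown in culture from marrow precursors and were taken untreated on day 7 of differentiation. The 4 control libraries have the genotype VavCre, a Cre recombinase driven by the promoter of Vav, a gene of blood-forming cells. The other 4, called double knockouts, combine Cdk8 flox/flox with Vav-iCre and Cdk19null, so Cdk8 is lost through the recombinase and Cdk19 through a null allele. Both groups thus carry a Vav-driven Cre. Labels do not state the age, strain or number of animals, or whether controls carry a floxed allele. Values are reads per gene, normalized by the authors for library depth. Means are given ± SD (n = 4 in each group), and folds divide double knockouts by controls.

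BCL2 family proteins decide whether the outer mitochondrial membrane is opened during apoptosis. Survival proteins (BCL2, BCL-XL, MCL1 and A1) hold the pore-forming effectors BAK and BAX in check. BH3-only proteins (BIM, BID, BAD and BMF) relay stress and starvation signals by occupying the survival proteins or by activating the effectors directly. Once the membrane opens, released cytochrome c starts the caspase cascade. Macrophages depend on growth factor signals for survival, and A1 is a survival protein known from activated myeloid cells. Cdk8 and Cdk19 encode paralogous kinases of the Mediator complex, which links transcription factors to RNA polymerase.

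The mouse genome holds A1 as several copies on chromosome 9, and their likeness bears on how reads are divided between Bcl2a1b and Bcl2a1d. The coding sequences of Bcl2a1a, Bcl2a1b and Bcl2a1d are each 519 bases long in GENCODE M21 (mm10). Bcl2a1b and Bcl2a1d differ at 6 of these bases (98.8% identity), and Bcl2a1a differs from Bcl2a1b at 11 and from Bcl2a1d at 7. The first 90 coding bases hold 6 of the columns at which any of the 3 copies differ, shown in capitals.
Bcl2a1a: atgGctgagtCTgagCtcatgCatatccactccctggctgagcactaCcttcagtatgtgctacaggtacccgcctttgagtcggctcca
Bcl2a1b: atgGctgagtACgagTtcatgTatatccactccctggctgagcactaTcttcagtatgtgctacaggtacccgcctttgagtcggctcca
Bcl2a1d: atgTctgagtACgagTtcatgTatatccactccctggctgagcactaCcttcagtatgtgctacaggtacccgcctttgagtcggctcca
Long identical runs lie between the capitals. Of the distinct 31-base words in annotated transcripts, 88.8% of those of Bcl2a1b and 89.1% of those of Bcl2a1d also occur in transcripts of another gene, mostly another A1 copy. For Bcl2a1a, which is no member, it was 79.6%. For the other 8 members the share was at most 0.604%. The split of reads between A1 copies is therefore uncertain, and the copies are also given as a sum.

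The start regions of the copies are alike as well. RefSeq windows (GRCm38.p6) from 250 bases before to 50 bases after the annotated start are shown for the 3 copies, since their transcripts moved in the same direction. Capitals mark GAGGAAGT, the core bound by the macrophage lineage factor PU.1, and TGATGCAA, the composite element of ATF4 and C/EBP factors. Bcl2a1a lies at chr9:88956670-88956969 on the plus strand, Bcl2a1b at chr9:89199023-89199322 on the plus strand and Bcl2a1d at chr9:88731801-88732100 on the minus strand.
Bcl2a1a: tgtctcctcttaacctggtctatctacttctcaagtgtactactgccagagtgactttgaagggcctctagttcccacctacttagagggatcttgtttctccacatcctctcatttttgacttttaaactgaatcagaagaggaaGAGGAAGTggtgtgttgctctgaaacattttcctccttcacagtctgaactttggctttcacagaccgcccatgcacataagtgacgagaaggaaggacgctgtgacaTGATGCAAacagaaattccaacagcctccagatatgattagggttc
Bcl2a1b: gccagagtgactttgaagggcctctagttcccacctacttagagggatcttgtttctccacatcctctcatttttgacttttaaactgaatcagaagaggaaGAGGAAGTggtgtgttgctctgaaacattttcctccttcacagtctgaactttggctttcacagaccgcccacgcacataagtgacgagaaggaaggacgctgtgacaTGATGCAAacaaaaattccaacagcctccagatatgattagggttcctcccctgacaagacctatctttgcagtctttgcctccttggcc
Bcl2a1d: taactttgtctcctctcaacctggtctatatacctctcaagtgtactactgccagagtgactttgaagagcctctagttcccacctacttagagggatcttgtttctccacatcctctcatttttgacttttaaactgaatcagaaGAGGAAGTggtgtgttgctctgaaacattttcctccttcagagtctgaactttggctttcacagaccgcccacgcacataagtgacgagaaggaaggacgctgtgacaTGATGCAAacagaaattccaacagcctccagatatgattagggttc
Over the aligned part, the windows of Bcl2a1b and Bcl2a1d were 96.5% identical, and those of Bcl2a1a and Bcl2a1b 99.2%. GAGGAAGT was present, on either strand, in 3.11% of 32544 RefSeq windows of the same length, and TGATGCAA in 0.867%. The 10 members have 16 windows in all, since some have several starts, so a count of members is not on the same scale as a share of windows. Among the 10 members, 4 had a window with GAGGAAGT (Bcl2a1b, Bcl2a1d, Bak1 and Bad) and 2 had TGATGCAA (Bcl2a1b and Bcl2a1d). Counted by windows, these were 4 and 2 of the 16. Since the windows of Bcl2a1b and Bcl2a1d are near copies, their matches are not separate, and the counts do not show an excess. These matches describe the letters only.

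Another window shown is that of Bcl2l11, which encodes BIM, a textbook target of FOXO factors. It lies at chr2:128125788-128126087 on the plus strand (GRCm38.p6), and the capitals mark the only match to TGTTTAC, the FOXO core, here on the opposite strand.
Bcl2l11: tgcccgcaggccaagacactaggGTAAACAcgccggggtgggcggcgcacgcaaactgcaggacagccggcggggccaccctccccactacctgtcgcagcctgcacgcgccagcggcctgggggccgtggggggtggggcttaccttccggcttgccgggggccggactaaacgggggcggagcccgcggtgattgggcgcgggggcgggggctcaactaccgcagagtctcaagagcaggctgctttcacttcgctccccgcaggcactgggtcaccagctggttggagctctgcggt
The FOXO core was found in 3.66% of all windows and, among the members, in 1, this one. The AP-1 letters TGANTCA occurred in 2 of the 16 windows, the near copies of Bcl2a1b and Bcl2a1d (7.79% of all windows). No letter there was shared with GAGGAAGT. The NF-kB motif occurred in windows of Bcl2l1 and Bmf (4.53% of all windows), TGACGTCA in none (1.801%) and GGGCGG in 9 of the 16 windows, from 8 members (35.9%).

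The ranges of depth overlapped between groups. Libraries held 17856715 to 21353207 reads, and the difference in depth gave an exact two-sided permutation p of 0.171. Genotype labels were checked on the targeted genes: Cdk19 fell from 1452 ± 189 to 372.8 ± 25.8, and Cdk8 from 438.7 ± 24.5 to 347.3 ± 60.8 (limma adjusted p = 2.95e-08 and 0.0374). The Cdk8 call was lost under several alternatives, listed with the processing, and a total over all exons need not show the loss of a floxed part. Double knockouts 1 and 2 were closer to each other than to 3 and 4, with a chi-square per gene of 8.01 within the first pair, 9.08 within the second and 19.2 to 26.4 across. Controls also differed among themselves, from 9.29 between 2 and 3 to 38.2 between 1 and 4. The share of mitochondrial reads was 2.60% and 2.98% in double knockouts 1 and 2, 4.27% and 4.19% in 3 and 4, and 2.77% to 3.52% in controls. Results below were also computed with each library left out, with the double knockout pairs averaged and with each pair alone. All 10 markers of macrophages passed the test, 5 higher and 5 lower, with a summed level of 307790 to 324990 in controls and 239060 to 259920 in double knockouts. Those higher were Cd68, Cd14, Lamp1, Mrc1 and Mertk, and those lower Adgre1, Csf1r, Itgam, Fcgr1 and Lyz2. Lyz2 was the largest part of the sum, at 160550 ± 7665 in controls and 96662 ± 3387 in double knockouts. The fall of the sum is thus not a fall of all markers. Monocyte and neutrophil markers are given beside the A1 results. The T cell genes Cd3e, Cd3d and Cd3g and the natural killer gene Ncr1 were at 0 in all 8 libraries. The lymphocyte list had 2 genes higher and 1 lower of 5 tested, with sums of 1175 to 1446 in controls and 1817 to 2164 in double knockouts. Il7r made up most of these sums, at 1111 ± 115 in controls and 1802 ± 142 in double knockouts. Cd4 rose from 23.9 ± 9.26 to 136.0 ± 17.7, and Cd79b fell from 133.5 ± 9.97 to 51.2 ± 8.32.

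Of the 10 members, 5 rose and 2 fell in the double knockout and 3 did not pass the test (limma, Benjamini-Hochberg adjusted p under 0.05 over 11675 genes). The rises were those of Bcl2a1b, Bcl2a1d, Mcl1, Bcl2l11 and Bmf, and the falls those of Bcl2l1 and Bid. Since the split of reads between the A1 copies Bcl2a1b and Bcl2a1d is uncertain, their rises may not be separate. All 10 had passed the filter on low values. Across all genes tested, 46.6% were called, 22.9% higher and 23.8% lower. The same 7 members had no overlap between groups, 5 higher and 2 lower, where 42.9% of all genes had none (21.2% higher and 21.7% lower). The median log2 fold change of the members was 0.31, against 0.01 for all genes tested, and the median size of a change regardless of sign was 0.31 in both. Rises and falls occurred on the survival side and on the death side alike.

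**Figure D1:**
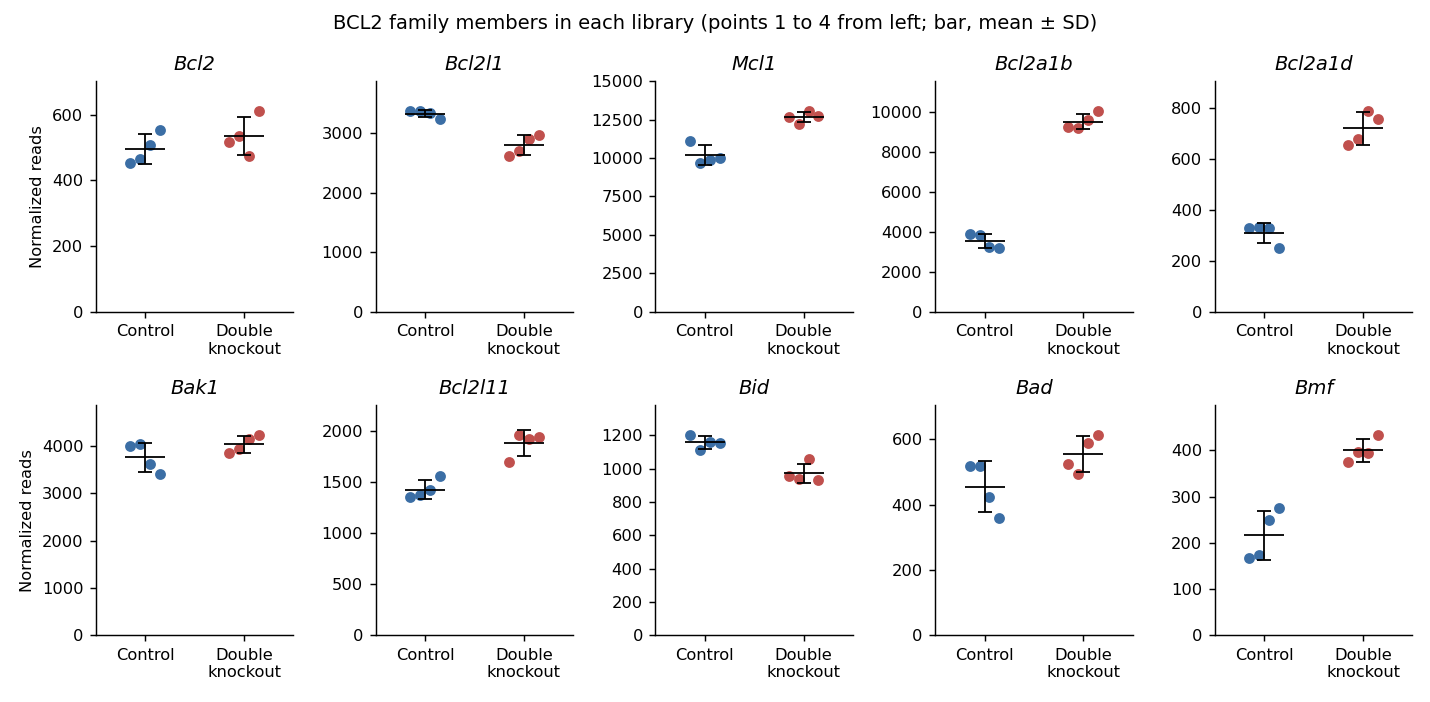
Normalized reads (y axis) of each of the 10 members in 4 control libraries (blue) and 4 double knockout libraries (red), with points 1 to 4 from left to right and bars for mean ± SD. Control libraries of Bcl2a1b range from 3205 to 3904 and double knockouts from 9214 to 10069, while the groups of Bcl2, Bak1 and Bad overlapped.

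Bcl2a1b showed the widest change of the family. This gene (ENSMUSG00000089929, chromosome 9, 89199209 to 89207827, mm10) encodes a copy of the survival protein A1. Controls 1 to 4 held 3904, 3833, 3257 and 3205 reads, and double knockouts 1 to 4 held 9271, 9214, 9632 and 10069. Every double knockout library lay far above every control. From 3550 ± 370 the mean rose 2.70-fold to 9546 ± 394 (log2 1.43, SE 0.08, adjusted p = 3.16e-08), and 260 of the 11675 genes had a larger log2 rise.

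Bcl2a1d (ENSMUSG00000099974, chromosome 9, 88723285 to 88731914) is read at a far lower level. Controls held 327, 334, 327 and 252 and double knockouts 653, 679, 787 and 757. The groups lay far apart, and control 4 was below the other controls. The mean rose 2.32-fold from 309.96 ± 39.0 to 719.3 ± 63.2 (log2 1.22, SE 0.11, adjusted p = 4.52e-06). Bcl2a1a, a copy outside the 10 members, rose 1.57-fold from 131.1 ± 25.6 to 204.1 ± 8.82 (adjusted p = 0.00518), and Bcl2a1c had 1.97 normalized reads in 1 control and none elsewhere.

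Summed over Bcl2a1a, Bcl2a1b, Bcl2a1c and Bcl2a1d, a value that does not depend on how reads are split among these copies, the level was 4394, 4302, 3683 and 3586 in controls. Double knockouts stood at 10137, 10095, 10612 and 11035. The sum rose from 3991 ± 415 to 10469.7 ± 444 (log2 1.396, limma adjusted p = 4.07e-08). Bcl2a1b also shares 401 exon bases with the predicted gene Gm29094, which held 25.6 reads per library on average.

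Neutrophils and monocytes are other cell types of marrow cultures in which A1 is known. Of 12 tested neutrophil markers, 9 fell and none rose, and their summed level was 2647 to 4391 in controls and 1296 to 1580 in double knockouts. S100a9, Ltf, Ngp and S100a8 were among those that fell. Of 9 monocyte markers, 5 fell and none rose, with sums of 2796 to 3317 against 664.1 to 792.04, and none of either list was at 0 in all libraries. The part of these cells in the change of A1 or of any other member was not tested, and in bulk RNA fewer cells of a type cannot be told apart from less RNA per cell.

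Mcl1 was the most abundant member in reads. It encodes MCL1, a short-lived survival protein that holds BAK and BIM (ENSMUSG00000038612, chromosome 3, 95658788 to 95663176). Controls stood at 11134, 9684, 9868 and 9989 and double knockouts at 12672, 12198, 13045 and 12727. All double knockouts lay above control 1, the highest control. The rise was 1.25-fold, from 10169 ± 656 to 12661 ± 349 (log2 0.32, SE 0.06, adjusted p = 0.00101).

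Bcl2l1 moved the other way. It encodes BCL-XL, and its gene total includes the transcripts of the short, death-promoting form, which cannot be told apart here (ENSMUSG00000007659, chromosome 2, 152780668 to 152831728). Its controls were tight, at 3368, 3363, 3334 and 3242, and its double knockouts stood at 2612, 2702, 2908 and 2971. No double knockout library reached the control range. The log2 fold change was -0.25 (SE 0.06, adjusted p = 0.00468), from 3327 ± 58.5 to 2798 ± 169. With double knockouts 3 and 4 alone, the pair with the higher mitochondrial share, the log2 fold change was -0.18 and did not pass (adjusted p = 0.0630). The part of that share in the result was not tested.

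Bcl2, the founding survival gene of the family (ENSMUSG00000057329, chromosome 1, 106538178 to 106714274), did not pass the test. Controls held 453, 465, 507 and 554 and double knockouts 516, 537, 475 and 611. The groups overlapped widely. The log2 fold change was 0.11 with a 95% interval of -0.12 to 0.34 (adjusted p = 0.420). Among survival members, the 3 that rose and the 1 that fell thus stood beside 1 whose interval includes no change. Of those that rose, Bcl2a1b and Bcl2a1d are A1 copies with an uncertain split of reads.

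Bak1 encodes BAK, an effector that forms the pore (ENSMUSG00000057789, chromosome 17, 27019810 to 27029009). Controls held 3990, 4041, 3607 and 3399 reads, and double knockouts 3851, 3922, 4140 and 4231. Controls 1 and 2 lay within the double knockout range. Its log2 fold change was 0.11 (95% interval -0.05 to 0.26, adjusted p = 0.235). The other widely expressed effector gene, Bax, which is no member, stood at 2977 ± 577 and 3856 ± 345 (log2 0.39, adjusted p = 0.0270) with overlapping groups. The Bax call was lost with the pairs averaged (adjusted p = 0.0932), with double knockouts 1 and 2 alone (0.176), without the trend and robust options (0.0671), and without double knockout 1, 3 or 4 or control 3 (0.0606 to 0.0689). Bok, a further effector-like gene, had at most 2.92 normalized reads in any library.

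BH3-only genes did not move as 1 group. Bmf, whose product senses loss of attachment and binds the cytoskeleton's motor complexes, rose most in ratio (ENSMUSG00000040093, chromosome 2, 118528757 to 118549687). Controls stood at 168, 174, 249 and 275 and double knockouts at 376, 396, 395 and 434. Controls 1 and 2 lay below controls 3 and 4, and all were under every double knockout. The mean rose 1.89-fold from 216.4 ± 53.5 to 400.1 ± 24.2 (log2 0.92, SE 0.16, adjusted p = 0.000683).

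Bcl2l11 encodes BIM, which binds all survival proteins of the family (ENSMUSG00000027381, chromosome 2, 128126038 to 128162547). Its controls held 1347, 1366, 1422 and 1558 and its double knockouts 1693, 1958, 1916 and 1941. The lowest double knockout, library 1, was above the highest control. The increase was 1.32-fold, from 1423 ± 95.4 to 1877 ± 124 (log2 0.40, SE 0.07, adjusted p = 0.000946). Of the genes known to act on the members, Foxo3, a factor that activates Bcl2l11, rose 1.32-fold from 1258 ± 67.8 to 1663 ± 79.1 (adjusted p = 0.000504).

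Bid encodes the BH3-only protein that caspase 8 cleaves to link death receptors to mitochondria (ENSMUSG00000004446, chromosome 6, 120891930 to 120916853). Controls stood at 1202, 1110, 1161 and 1152 and double knockouts at 954, 935, 1058 and 934. Double knockout 3 was nearest to the controls without entering their range. The log2 fold change was -0.25 (SE 0.07, adjusted p = 0.0117), and -0.22 with double knockouts 3 and 4 alone, which did not pass (adjusted p = 0.0895). Here too the part of the mitochondrial share was not tested. Bid shares 628 exon bases with Bcl2l13 on the opposite strand. Bcl2l13 stood at 812.8 ± 190 and 600.2 ± 142 (log2 -0.44, adjusted p = 0.0750). It passed by DESeq2 (adjusted p = 0.0447), without double knockout 2 (0.0177) and without control 3 (0.0234). Since the use of strand is not given, reads of this stretch cannot be assigned to either gene.

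Bad, a BH3-only gene whose product is silenced by survival kinases through phosphorylation (ENSMUSG00000024959, chromosome 19, 6941861 to 6951899), did not pass. Its controls ranged most after those of Bmf, at 519, 516, 423 and 359, and its double knockouts held 524, 495, 589 and 613. Controls 1 and 2 overlapped with the double knockouts. The log2 fold change was 0.30 with a 95% interval of 0.01 to 0.59 before adjustment (adjusted p = 0.0790). It passed without control 1 (log2 0.37, adjusted p = 0.0440) and under quantile normalization (log2 0.37, adjusted p = 0.0338). Bad shares 524 exon bases with Gpr137 on the other strand, which held 377 reads per library on average. Reads of this stretch cannot be assigned to either gene, since the use of strand is not given. Bak1 shares 177 and 437 exon bases with 2 annotated entries of Ggnbp1. Bcl2 shares 558 with the antisense gene D630008O14Rik, which has no row among the deposited values.

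**Figure D2:**
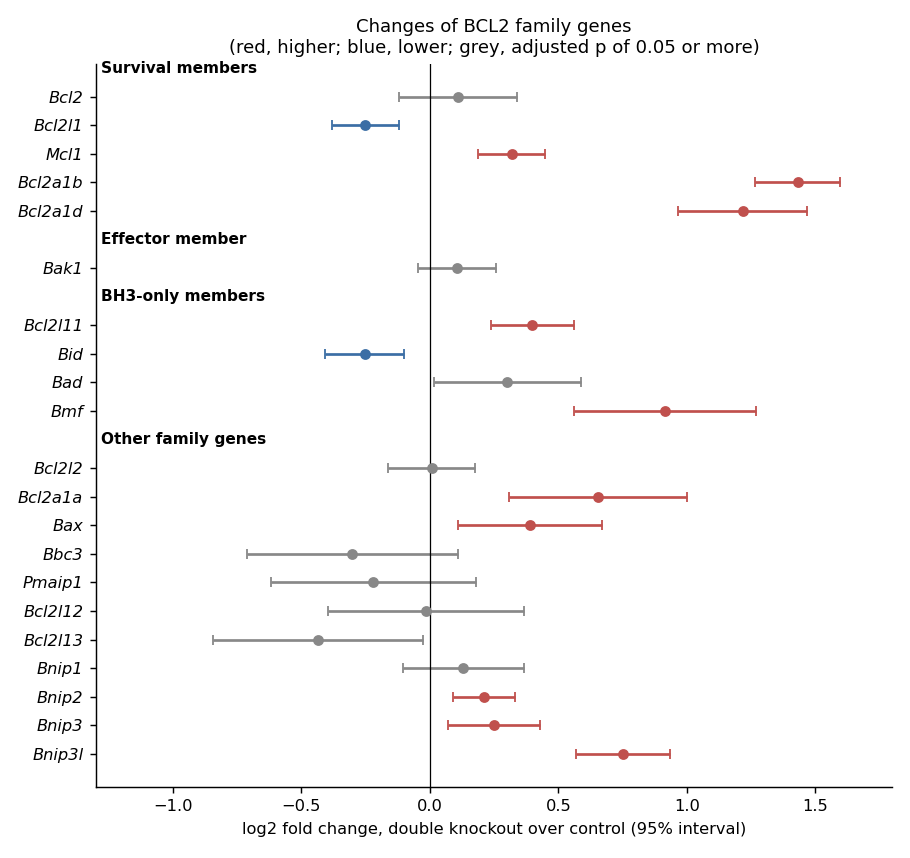
Log2 fold changes (x axis, point, with 95% interval) of the 10 members and of 11 other measured BCL2 family and BCL2-like genes, by role. Bcl2a1b (1.43), Bcl2a1d (1.22) and Bmf (0.92) lie farthest to the right, and Bcl2l1 and Bid (both -0.25) are the called falls.

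The remaining BCL2 family genes, counted with BCL2-like genes such as the Bnip genes, gave 5 rises and no fall among 11 tested of 18 listed. Their median log2 fold change was 0.13. Of all genes tested, 22.9% were called higher and 23.8% lower, the shares to set beside this list and the later ones. Bnip3l, a mitophagy receptor, rose 1.68-fold from 2075 ± 203 to 3492 ± 291 (adjusted p = 1.92e-05) with no overlap. Bnip2 and Bnip3 rose 1.16- and 1.19-fold (adjusted p = 0.00886 and 0.0251), and the rises of Bcl2a1a and Bax are given above. The rise of Bcl2a1a may not be separate from those of Bcl2a1b and Bcl2a1d, since the split of reads is uncertain. With the double knockout pairs averaged, Bnip2 and Bnip3 did not pass (adjusted p = 0.0511 and 0.0845). Bnip2 also failed with double knockouts 1 and 2 alone (0.0623). Bnip3 failed with that pair alone (0.204) and without double knockout 3 or 4 or control 2 (0.0564 to 0.0761).

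Bcl2l2, the survival gene of BCL-W, stood at 714.2 ± 10.8 and 719.2 ± 47.97 (log2 0.01, adjusted p = 0.943). The p53-responsive BH3-only genes Bbc3 (PUMA) and Pmaip1 (NOXA) stood at 270.7 ± 55.8 and 219.7 ± 51.2, and at 168.7 ± 24.8 and 146.02 ± 31.3 (adjusted p = 0.209 and 0.350). Bik held at most 10 normalized reads in a library, and Bcl2l10, Hrk and Bcl2l15 had none. A count of 0 does not exclude a very low level.

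Levels between genes were compared per kilobase of annotated exon, since long genes collect more reads. In controls the order of means was Bcl2a1b (4345 ± 452 normalized reads per kb), Mcl1 (2975 ± 192), Bak1 (1562 ± 128), Bcl2l1 (725.4 ± 12.8), Bcl2a1d (359.2 ± 45.1), Bid (325.7 ± 10.6), Bad (177.6 ± 30.4), Bcl2l11 (177.3 ± 11.9), Bcl2 (54.05 ± 5.02) and Bmf (41.2 ± 10.2). Ranges over libraries overlapped between the neighbours Bcl2a1d and Bid, Bad and Bcl2l11, and Bcl2 and Bmf, and not between the others. In double knockouts Bcl2a1b stood at 11685 ± 483 per kb and Mcl1 at 3704 ± 102. Bcl2a1d (833.5 ± 73.2) came before Bcl2l1 (610.1 ± 36.9) there, and Bmf (76.2 ± 4.61) before Bcl2 (58.4 ± 6.22), both without overlap. With the longest transcript as the length, Bcl2l1 (1090 ± 66.0 per kb) stayed above Bcl2a1d in double knockouts, and Bmf and Bcl2 overlapped. The short A1 transcripts of 817 and 863 bases make their levels per length the least certain.

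**Figure D3:**
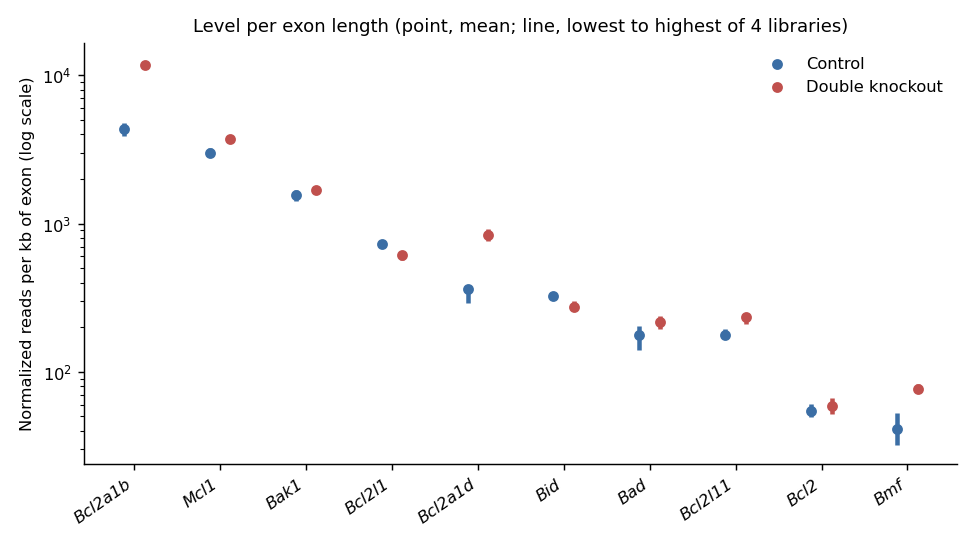
Normalized reads per kb of annotated exon (y axis, log scale) of the 10 members in control (blue) and double knockout (red) libraries, ordered by the control mean, with points for means and lines from the lowest to the highest of 4 libraries. Bcl2a1b is highest in both groups, and the order of Bcl2a1d and Bcl2l1 differs between them.

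Added together per kb, the 5 survival members reached 8459 ± 603 in controls and, in double knockouts, 16891 ± 642. The 5 death-promoting members, Bak1 and the BH3-only genes, stood at 2284 ± 137 and 2477 ± 113. Bax, with 2977 ± 577 and 3856 ± 345 normalized reads against 3759 ± 309 and 4036 ± 179 of Bak1, is no member and is not in this sum. Bcl2l2 and Bcl2a1a, also no members, are not in the survival sum. Any ratio of the sums depends on this choice of genes. The survival sum was 3.83, 3.63, 3.63 and 3.72 times the death sum in controls 1 to 4 and 6.98, 6.77, 6.71 and 6.82 times in double knockouts. Bcl2a1b made up 51.3% ± 2.09 of the survival sum in controls and 69.2% ± 0.556 in double knockouts. Without Bcl2a1b and Bcl2a1d the ratio was 1.51 to 1.74 in controls and 1.72 to 1.84 in double knockouts, with overlapping ranges. The wider ratio in double knockouts thus rested on the A1 copies. These are sums of transcript levels over chosen genes, given with no test, and they do not measure protein.

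Genes of like pattern were sought among 10051 other genes with a mean of at least 50 and a named symbol, leaving out Gm and Rik names. Those closest to Bcl2a1b over the 8 libraries were Fdps, Atf5 and Cd63 (0.0499, 0.0665 and 0.0710). Closeness was the root mean square difference of log2 values centred on each gene's mean. Fdps stood at 734.5 ± 54.3 and 1880 ± 87.7, Atf5 at 704.3 ± 81.6 and 1997 ± 178, and Cd63 at 7473 ± 488 and 19429 ± 374. Fdps encodes farnesyl diphosphate synthase of the sterol pathway, Atf5 a transcription factor of the ATF4 family, and Cd63 a tetraspanin of late endosomes. For Bid, whose fall was the largest by a small margin over Bcl2l1, the closest were Ankrd13a, Prkch and Pitpna (0.0425, 0.0432 and 0.0474). Such likeness includes the difference between the genotypes.

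Downstream of the members, genes of the apoptosome and of mitochondrial release were split, with 3 higher, 3 lower and 5 not called of 11 (median log2 -0.04). The third rise is that of Casp9, which is also counted among the caspases and whose call was lost under alternatives given there. Apaf1, the scaffold of the apoptosome, rose 1.60-fold from 1004 ± 185 to 1597 ± 227 (adjusted p = 0.00282). Diablo, which relieves the inhibition of caspases, rose 1.42-fold from 426.3 ± 40.5 to 607.3 ± 51.7 (adjusted p = 0.00161). Cycs, which encodes cytochrome c, stood at 2830 ± 235 and 2323 ± 134 (log2 -0.28, adjusted p = 0.00747), and Vdac2, a channel of the outer membrane that holds BAK, had a log2 fold change of -0.22 (adjusted p = 0.0169). The Cycs call was lost with double knockouts 3 and 4 alone (adjusted p = 0.0793). The Vdac2 call was lost there too (0.160), with the pairs averaged (0.0766), with the replicate number as a block (0.0656) and without double knockout 1 (0.0515).

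The 4 caspase genes described here gave 1 fall and 2 rises (median log2 0.13). Casp2 held 1116, 1070.2, 1215 and 1294 reads in controls. Its double knockout values were 767, 824, 722 and 749. The groups did not overlap, and the log2 fold change was -0.61 (adjusted p = 8.89e-05). Casp9, the initiator that the apoptosome activates, and Casp6 had log2 fold changes of 0.40 and 0.43 with overlapping groups (adjusted p = 0.0197 and 0.0277). The Casp9 call was lost with the pairs averaged (0.0518), with double knockouts 1 and 2 alone (0.192), without double knockout 3 (0.0571) and without control 1 (0.0512). The Casp6 call was lost with the pairs averaged (0.0947), with either pair alone (0.123 and 0.0912), and without double knockout 1 or 3 or control 2 or 4 (0.0513 to 0.0716). Casp8, the initiator at death receptors, stood at 2613 ± 186 and 2369 ± 66.7 (adjusted p = 0.102).

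Inhibitor of apoptosis genes gave 4 falls and no rise of 8 (median -0.35). Birc5, which encodes survivin, a protein of the mitotic chromosomal passenger complex, held 1174, 1026, 1008 and 881 reads in controls against 121, 124, 155 and 126 in double knockouts (log2 -2.95, adjusted p = 4.08e-09). All 15 markers of mitosis fell in the same libraries, with a median log2 fold change of -2.78 and sums of 21400 to 23128 against 2931 to 3203. Xiap, a direct caspase inhibitor, had a log2 fold change of -0.38 (adjusted p = 0.00193) and Birc6 one of -0.37 (adjusted p = 0.00559, and 0.0741 with double knockouts 1 and 2 alone). Naip2, known as an inflammasome sensor, stood at -0.41 (adjusted p = 0.0371), a call lost with the pairs averaged (0.101), with double knockouts 1 and 2 alone (0.244), with the block (0.0825), without the trend and robust options (0.0784) and without any of double knockouts 3 and 4 and controls 2, 3 and 4 (0.0670 to 0.106). Birc2 and Birc3, which act at the TNF receptor, did not pass (log2 0.03 and -0.01).

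Death receptor genes gave 4 rises and 2 falls of 10 tested (median -0.13). Fas fell from 93.2 ± 26.8 to 17.9 ± 10.3 (log2 -2.47, adjusted p = 0.000604), and Fasl had no reads. The necroptosis kinase gene Ripk3 had a log2 fold change of -0.58 (adjusted p = 0.00608, and 0.0823 with double knockouts 3 and 4 alone). Fadd, the adaptor that recruits caspase 8, rose 1.39-fold (adjusted p = 0.00296) and Tnfrsf21 1.37-fold (adjusted p = 0.00454, and 0.0585 with double knockouts 3 and 4 alone). The other 2 rises, named after their values were seen, were those of Tradd and of Cflar, the FLIP inhibitor of caspase 8 (adjusted p = 0.00781 and 0.0151). The groups of Cflar and of Tnfrsf21 overlapped. Calls of Tradd and Cflar were not compared across the alternatives. Caspase substrates and clearance genes gave 1 rise and 2 falls of 7 (median -0.21). Panx1, a channel opened by caspases, rose 1.55-fold (adjusted p = 0.00569), and Parp1, a DNA repair enzyme cut by caspases, fell by 0.76 on the log2 scale (adjusted p = 4.08e-06). Rock1 had a log2 fold change of -0.24 (adjusted p = 0.0279), a call lost with the pairs averaged (0.0990) and under several other settings. Panx1 did not pass with double knockouts 1 and 2 alone (0.0563).

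**Figure D4:**
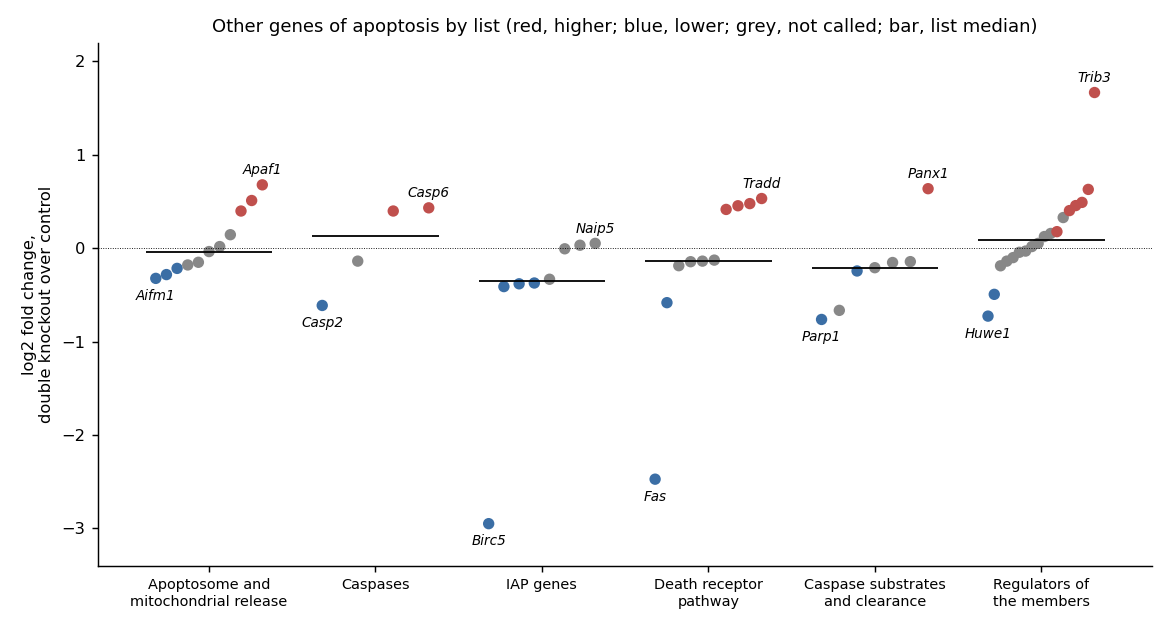
Log2 fold changes (y axis) of the tested genes of 6 apoptosis lists, each point a gene coloured by its call, with bars for list medians and names for the lowest and highest gene of a list. Birc5 (-2.95) and Fas (-2.47) lie lowest and Trib3 (1.67) highest, and each list except the inhibitors of apoptosis holds calls in both directions.

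Genes known to act on the members were called higher in 6 and lower in 2 of 18 tested (median 0.09). Trib3, a stress-induced pseudokinase, rose 3.17-fold from 82.3 ± 17.0 to 261.1 ± 36.8 (adjusted p = 1.30e-05). Ddit3, which encodes the stress factor CHOP, an activator of Bcl2l11, rose 1.55-fold from 709.1 ± 97.3 to 1098 ± 157 (adjusted p = 0.00138). Fbxw7, part of a ubiquitin ligase that marks MCL1 for degradation, rose from 357.2 ± 11.98 to 503.7 ± 50.3 (log2 0.49, adjusted p = 0.00153). The 2 falls, named after their values were seen, were those of Huwe1, another ubiquitin ligase of MCL1, and Usp9x, a deubiquitinase that stabilizes it (log2 -0.73 and -0.49, adjusted p = 0.00938 and 0.00589). Beside the rises above and that of Foxo3, the kinase genes Pim1 and Akt1 rose, also named after their values were seen. Their log2 fold changes were 0.46 and 0.18 (adjusted p = 0.00225 and 0.0190), with no overlap between groups. Calls of Huwe1, Usp9x, Pim1 and Akt1 were not compared across the alternatives. Dynll1 and Dynll2, the light chains that tether BIM and BMF, had log2 fold changes of -0.19 and -0.04 and did not pass (adjusted p = 0.163 and 0.606).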

How the data were processed

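RNA from day 7 macrophages was read as pairs of 150 bases, per the labels' protocols. Salmon 1.4.0, DESeq2 and build mm10 are named in the submitters' processing notes, while no source used here gives the filters, strand handling or annotation release. The deposited values are a signal: reads per gene divided by 1 size factor per library by the authors. Dividing that out gave whole numbers for 100% of values in each library (tolerance 0.01), 17856715 to 21353207 reads per library. No source used here says whether these are counted reads or rounded estimates from Salmon, or whether a pair counts as 1 read.

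The test was limma 3.58.1 (R 4.3.3) on log2(value + 1), for genes reaching 10 in 4 or more libraries (trend and robust options, two-sided, genotype only), with p adjusted by Benjamini-Hochberg over all 11675 genes at a threshold of 0.05. This scale understates changes of low genes. Single values were compared by exact permutation, whose smallest p is 0.0286. On recovered reads, edgeR 4.0.16 called 5371 genes and DESeq2 1.42.0 called 5678, against 5444. Other alternatives were 2 pseudocounts, 2 filters, other options and scalings, a replicate block, averaged pairs, single pairs and each library left out. The test was tried on simulated data. Nothing in the labels says that replicates came from separate mice or cultures, so a p-value reflects only the spread of these libraries, possibly technical.

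Rows were matched by gene ID to GENCODE M21 (34415 of 34432). The members and gene lists were chosen with earlier results of these data known. All members were named, with up to 4 called genes of smallest adjusted p per list and all other BCL2 family genes of the survival, effector and BH3-only roles. Lists that bear on no member (dendritic cells, mast cells, erythroid cells and stroma) gave 3 higher and 1 lower call among 8 tested genes. Some genes of the lists are not reported here.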

Additional observations from a re-analysis of the deposited data

Results flagged for a closer look

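In 9 of 90 groups of 4 libraries, 1 library lay far from the other 3 by Dixon's criterion, and chance gives about 1 in 20 such groups. Among the members, Bcl2a1d was lowest in control replicate 4 (251.7), Bcl2l11 was lowest in double knockout replicate 1 (1693) and Bid was highest in double knockout replicate 3 (1058). Leaving out these libraries in turn kept the calls of all 3 genes. Among other genes, Bcl2l2 was highest in control replicate 1 (730.2), Bax lowest in double knockout replicate 2 (3341), Apaf1 lowest in control replicate 2 (728.9), Birc5 highest in double knockout replicate 3 (155), Parp1 lowest in control replicate 1 (3265) and Fbxw7 highest in control replicate 3 (375.1).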

How the results depend on the processing

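Under the alternatives run, the 5 rising members (Bcl2a1b, Bcl2a1d, Mcl1, Bcl2l11 and Bmf) passed the test throughout, with log2 fold changes of 1.38 to 1.48, 1.11 to 1.32, 0.27 to 0.36, 0.36 to 0.45 and 0.81 to 1.04. With double knockouts 3 and 4 alone, an alternative chosen after seeing the data, 0 members were called lower: Bcl2l1 had -0.18 and Bid -0.22. Bad passed under quantile normalization (0.37) and without control 1. Its values with 1 library left out ran from 0.19 to 0.37. With double knockouts 1 and 2 alone, 20 of the other apoptosis genes were called, against 34. Over all 11675 genes tested, that setting called 3922, against 5444, so calls were lost in general. With the longest transcript as length, the survival sum was 3.37 times the death sum in controls and 5.97 times in double knockouts. Cdk8 did not pass with no filter (-0.35), no trend or robust options (-0.35), quantile normalization (-0.27), the replicate block (-0.35) or double knockouts 1 and 2 alone (-0.27), and ran from -0.46 to -0.28 with 1 library left out, where it did not pass without double knockout 2, 3 or 4 or control 1, 2 or 4 (adjusted p = 0.0551 to 0.104). The cause of these changes was not tested. Genes detected differed by -312 between double knockouts and controls (exact permutation p = 0.0286), and by -370.8 to -262.5 with 1 library left out, where the smallest possible p is 0.0571. Near 0, Bcl2l12 turned to 0.13 under quantile normalization, 0.035 with double knockouts 3 and 4 alone, and ran from -0.163 to 0.087 with 1 library left out. Bcl2l2 turned to -0.0080 with double knockouts 1 and 2 alone, and ran from -0.027 to 0.037 with 1 library left out. Replicate numbers did not pair the libraries: same-numbered libraries deviated with correlations of -0.05 to 0.03. With the replicate block 7 members were called, as without it, and 4649 genes in all. Among the calls lost with the block were those of Naip2, Vdac2, Rock1 and Cdk8. It left 29 of the other apoptosis genes called, and averaging the double knockout pairs left 24, against 34. Averaging the pairs left 4150 of all genes called, against 5444.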

Other observations

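Control libraries differed among themselves in some members. Controls 1 and 2 averaged 3868 for Bcl2a1b and controls 3 and 4 averaged 3231, while Bmf averaged 171.04 and 261.7 and Bad 517.6 and 390.8 in the same pairs. The coefficient of variation among controls was highest for Bmf (24.7%) and Bad (17.1%) and lowest for Bcl2l1 (1.76%). Among double knockouts it was highest for Bcl2 (10.7%) and lowest for Mcl1 (2.76%). Bmf was the member whose spread differed most between groups, at 6.06% in double knockouts.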
